A study of Mus musculus with 6 samples.

Results

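The lysosome and autophagy genes followed here are 32 genes listed by symbol, and all 32 were found among the 14861 genes of the deposited table. They comprise 14 genes of lysosomal hydrolases and their activator, 3 of the lysosomal membrane, 4 of the vacuolar proton pump, 2 transcription factor genes and 9 autophagy genes. RNA came from the inguinal fat of AdIGF1RKO mice, 3 libraries, and of littermate Flox mice, 3 libraries. Both groups carried the floxed Igf1r allele, which encodes the receptor for insulin-like growth factor 1, and in AdIGF1RKO mice Cre recombinase under the adiponectin promoter is used to delete it in adipocytes, while the other cell types of the tissue are not targeted. The diet, normal chow D12450J, supplied 10% of kilocalories as fat over 24 weeks in both groups, and food was withheld overnight before dissection. The floxed line is labelled B6;129 and the Cre line B6;FVB, and the tissue was snap-frozen.

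Lysosomes degrade material delivered by endocytosis and by autophagy, with hydrolases that work at the low pH set by a proton pump, the V-ATPase. In macroautophagy a kinase complex starts a membrane sac, a lipid-conjugated protein of the LC3 and GABARAP families marks it, and the closed vesicle fuses with the lysosome. The transcription factors TFEB and TFE3 activate many lysosomal genes through an E-box-containing promoter element and are held in the cytoplasm when mTORC1, a kinase fed by growth factor and amino acid signals, is active. In fat, lysosomal genes are used by adipocytes and, strongly, by macrophages that take up lipid.

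Promoter sequence is shown for 5 of the members, because TFEB and TFE3 recognise a short motif there. They are examples with and without the motif, and the shares over all matched members follow the sequences. Promoter windows of 300 bases, from 250 before to 50 after the transcription start, were taken from RefSeq on build GRCm38.p6, an earlier build than the GRCm39 named in the submitters' processing notes, and 26 of the 32 members matched. Ctsb, Ctsh, Map1lc3a, Becn1, Atp6v1b2 and Atp6v1h had no entry. The sequences run 5′ to 3′ on the gene's strand, and capitals mark the E-box CACGTG. Where the base before or after makes it the longer form TCACGTG on either strand, that base is in capitals too.
Gla, chrX:134600956-134601255, minus strand: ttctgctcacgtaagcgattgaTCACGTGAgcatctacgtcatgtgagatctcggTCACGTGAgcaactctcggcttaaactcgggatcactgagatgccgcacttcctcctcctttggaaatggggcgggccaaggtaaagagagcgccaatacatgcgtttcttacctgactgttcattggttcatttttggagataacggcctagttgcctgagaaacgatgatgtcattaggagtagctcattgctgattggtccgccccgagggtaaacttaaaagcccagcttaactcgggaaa
Atp6v1a, chr16:44139210-44139509, minus strand: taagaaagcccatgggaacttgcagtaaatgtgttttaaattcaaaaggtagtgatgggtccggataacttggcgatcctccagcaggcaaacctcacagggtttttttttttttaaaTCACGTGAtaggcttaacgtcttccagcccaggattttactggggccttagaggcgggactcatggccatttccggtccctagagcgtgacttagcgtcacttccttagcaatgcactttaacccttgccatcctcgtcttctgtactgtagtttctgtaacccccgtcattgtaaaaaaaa
Lamp1, chr8:13158911-13159210, plus strand: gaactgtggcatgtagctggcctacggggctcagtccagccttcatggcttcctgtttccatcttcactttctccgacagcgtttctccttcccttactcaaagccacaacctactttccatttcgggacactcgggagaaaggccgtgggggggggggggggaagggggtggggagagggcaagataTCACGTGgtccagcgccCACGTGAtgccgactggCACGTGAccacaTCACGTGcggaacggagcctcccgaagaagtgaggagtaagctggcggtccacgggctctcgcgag
Lipa, chr19:34527425-34527724, minus strand: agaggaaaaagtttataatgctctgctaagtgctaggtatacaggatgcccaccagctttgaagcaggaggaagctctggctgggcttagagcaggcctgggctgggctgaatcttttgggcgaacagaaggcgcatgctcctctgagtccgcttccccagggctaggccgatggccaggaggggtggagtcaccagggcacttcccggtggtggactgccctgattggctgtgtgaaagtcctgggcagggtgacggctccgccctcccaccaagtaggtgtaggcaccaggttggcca
Sqstm1, chr11:50210771-50211070, minus strand: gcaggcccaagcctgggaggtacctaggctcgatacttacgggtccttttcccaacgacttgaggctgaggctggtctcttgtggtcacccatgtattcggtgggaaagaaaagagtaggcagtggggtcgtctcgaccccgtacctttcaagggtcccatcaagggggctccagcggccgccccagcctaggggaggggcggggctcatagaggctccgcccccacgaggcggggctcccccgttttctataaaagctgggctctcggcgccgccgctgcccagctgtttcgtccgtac
CACGTG was found for 10 of 17 matched lysosomal members, 58.8%, and for 2 of 7 matched autophagy members, 28.6%. Over all promoters in the RefSeq table it was found for 8.09% of 27025 genes, and for 11.5% of the 10165 tested genes with an entry. The form TCACGTG, which contains the E-box, was found for 9 of the 17 lysosomal members and 1 of the 7 autophagy members. It was found for 4.29% of all genes and for 6.86% of the tested genes with an entry. The full CLEAR palindrome, which extends TCACGTG on both sides, was in none of the 26 members. It was in 0.370% of all genes and in 0.758% of the tested genes with an entry. Lamp1 held 4 copies of CACGTG within 61 bases of its start, and Gla held 2, which begin 227 and 194 bases upstream. Neither Lipa nor Sqstm1 held a copy in its window. A match is a description of the letters and not of a bound site.

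Reads assigned to genes numbered from 60617147 to 70695527 per library, and each member had at least 170 reads in every library. Values are given as scaled CPM, the reads per 1000000 after the libraries were put on 1 scale by median ratios. They were not divided by gene length, so levels of different genes are not compared. Igf1r itself had 6.11, 5.27 and 4.85 scaled CPM in AdIGF1RKO libraries 1 to 3 and 6.44, 6.47 and 5.86 in Flox libraries 1 to 3, with overlapping groups (log2 difference -0.18, limma adjusted p = 0.998). These reads were summed over all of Igf1r, and which part is deleted is not in the labels. Every gene of the deposited table had at least 1 read in every library, so the absence of a marker could not be seen. The 12 adipocyte markers summed to 67124, 58902 and 67151 scaled CPM in AdIGF1RKO and 63793, 79711 and 64832 in Flox. Libraries differed in skeletal muscle RNA, followed here by 19 marker genes and not by all muscle transcripts. These markers took 0.0588%, 0.304% and 5.02% of reads in AdIGF1RKO 1 to 3 and 0.972%, 0.116% and 13.8% in Flox 1 to 3. AdIGF1RKO 2 had the highest levels of every lipid-laden macrophage marker tested, with values given beside the members further on. In bulk tissue, fewer cells of a type and less RNA per cell cannot be told apart.

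No lysosome or autophagy gene differed between AdIGF1RKO and Flox past the threshold. Fitted with limma, 0 of 32 members passed at an adjusted p under 0.05, as did 0 of all 12993 genes tested, 0%, and the smallest adjusted p among members was 0.998. At an unadjusted p under 0.05 there were 0 members, against 2.96% of all genes. On the recovered reads edgeR called 0 members and 0% of all genes, with 0 members and 2.92% of genes at an unadjusted p under 0.05. DESeq2 called 0 members and 0.177% of genes, with 1 member, Ulk1, and 3.8% of genes at an unadjusted p under 0.05. The groups did not overlap for 1 member, Atp6v1h, which was higher in AdIGF1RKO, and no member was lower without overlap, against 8.27% of all genes, 4.41% higher and 3.86% lower. The log2 difference was positive for 18 of 32 members, against 44.8% of all genes. That split followed the scaling, with 7 positive in the values as deposited and 25 with equal library sums, where the median of all genes was -0.17 and 0.09. Of all 12993 genes, 1916 and 9394 were positive on those scales. Lysosomal members had a median log2 difference of 0.12, and autophagy members one of -0.12, against -0.02 for all tested genes. Both medians depended on single libraries. The lysosomal median was -0.021 without AdIGF1RKO 2 and 0.076 without Flox 3. The autophagy median was -0.024 without AdIGF1RKO 2, 0.0059 without Flox 3 and -0.076 without Flox 2.

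**Figure D1:**
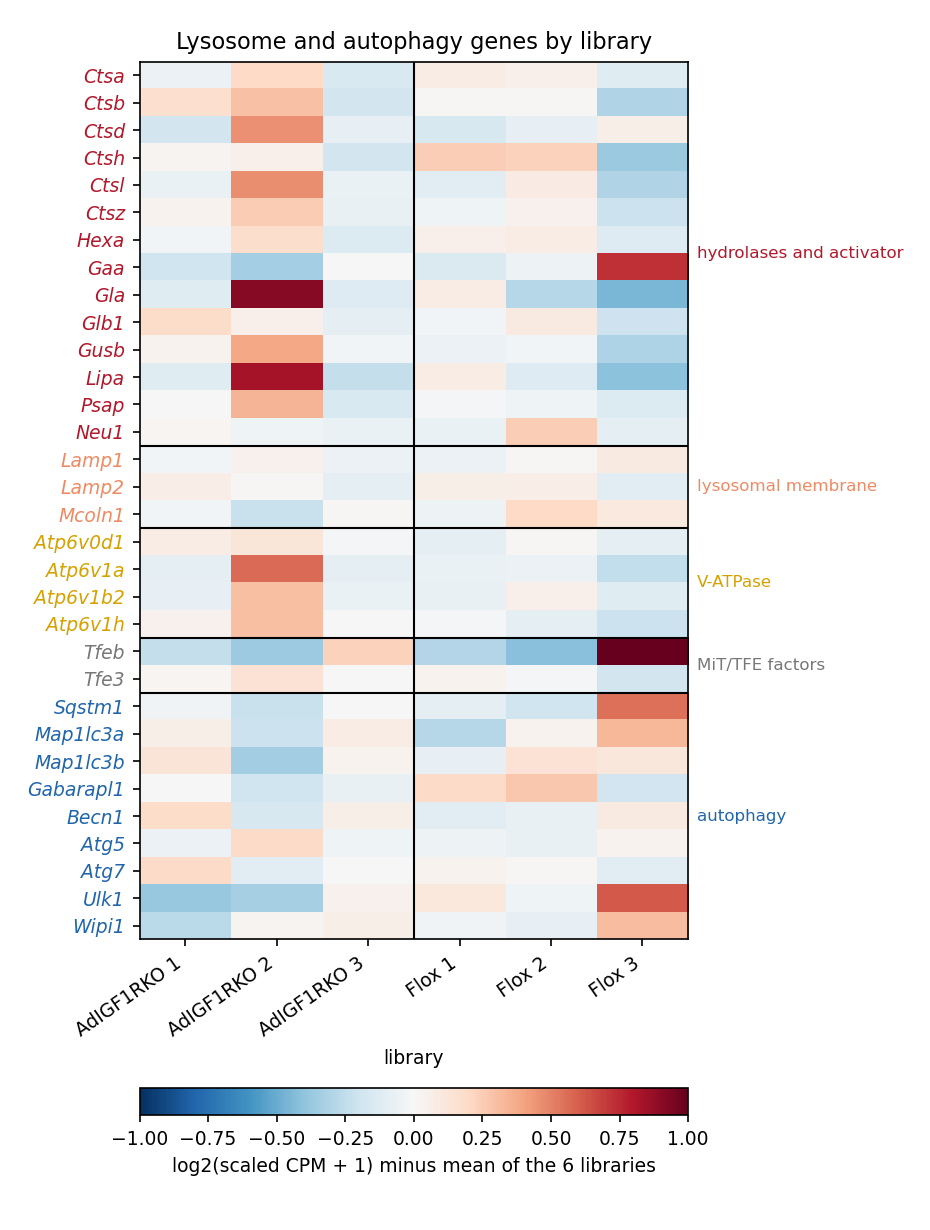
Each cell gives the log2(scaled CPM + 1) of a member (rows, grouped by role) in a library (columns, 3 AdIGF1RKO then 3 Flox) minus the member's mean over the 6 libraries, with colours that end at -1 and 1. AdIGF1RKO 2 is red in most hydrolase and V-ATPase rows and blue in most autophagy rows, and Flox 3 is red at Gaa, Tfeb, Sqstm1 and Ulk1.

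For the lysosomal proteases cathepsin B, D, L and Z, the value in AdIGF1RKO 2 was above those in the other 5 libraries, while the groups overlapped. Ctsd, the aspartic protease cathepsin D, had 850.1, 1328 and 914 scaled CPM in AdIGF1RKO and 864, 915 and 1009 in Flox. The difference on the log2 scale was 0.12 (standard error 0.18, 95% interval from -0.32 to 0.57) over all libraries and -0.07 without AdIGF1RKO 2. Ctsl, cathepsin L, had 548, 794 and 548 in AdIGF1RKO and 530.4, 607 and 466 in Flox (log2 difference 0.22, standard error 0.18). AdIGF1RKO 2 was again the highest library, and AdIGF1RKO 1 and 3 lay within the Flox range. Ctsb, cathepsin B, had 1420.4, 1553 and 1117 in AdIGF1RKO and 1276, 1276 and 1027 in Flox (0.19, standard error 0.16), with AdIGF1RKO 1 and 2 above and AdIGF1RKO 3 inside the Flox range. Ctsz, a carboxypeptidase, and Ctsa, the protective protein for beta-galactosidase and neuraminidase, were also highest in AdIGF1RKO 2, with log2 differences of 0.15 and -0.0046. Ctsh, an aminopeptidase, was highest in Flox 1 at 201 scaled CPM (log2 difference -0.07).

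Of the genes for the breakdown of lipids and sugars, Lipa, Gla, Gusb and Psap were also highest in AdIGF1RKO 2. Lipa, the acid lipase that hydrolyses cholesteryl esters and triglycerides taken into the lysosome, had 55.3, 108 and 51.0 scaled CPM in AdIGF1RKO and 63.6, 55.2 and 45.2 in Flox. AdIGF1RKO 2 was 1.70 times the highest of the other 5 libraries, and AdIGF1RKO 1 and 3 lay inside the Flox range. The log2 difference of 0.31 (standard error 0.30, 95% interval from -0.41 to 1.03) was -0.03 without AdIGF1RKO 2. Gla, alpha-galactosidase A, which removes the terminal galactose of glycolipids, had 4.72, 10.7 and 4.68 in AdIGF1RKO and 5.54, 4.11 and 3.52 in Flox. AdIGF1RKO 2 stood at 1.93 times the highest other library, the furthest of all 32 members, and the log2 difference of 0.44 (standard error 0.32) was 0.10 without it. Gusb, beta-glucuronidase, had 55.9, 71.6 and 53.4 in AdIGF1RKO and 52.4, 53.5 and 43.8 in Flox (log2 difference 0.26, standard error 0.14, without AdIGF1RKO 2 0.13). Only AdIGF1RKO 3, by a narrow margin, kept the groups of Gusb from separating. Psap, whose product is cleaved into the saposins that present lipids to these enzymes, had 1313, 1650.2 and 1177 in AdIGF1RKO and 1297, 1266 and 1189 in Flox (0.13, standard error 0.14).

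Among the other sugar-cutting enzymes, Hexa, the alpha subunit of beta-hexosaminidase, was highest in AdIGF1RKO 2 at 169 scaled CPM with a log2 difference of 0.0035. Glb1, beta-galactosidase, and Neu1, a sialidase, had log2 differences of 0.10 and -0.05 and were not highest in AdIGF1RKO 2. Gaa, the acid alpha-glucosidase that breaks down glycogen in the lysosome, went against its class, with 51.0, 46.2 and 59.0 in AdIGF1RKO and 53.2, 56.8 and 98.3 in Flox. Flox 3 alone was high, and the log2 difference of -0.36 (standard error 0.24) was -0.08 without that library, the one with the most muscle RNA. The part of muscle RNA in the Gaa value was not tested.

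**Figure D2:**
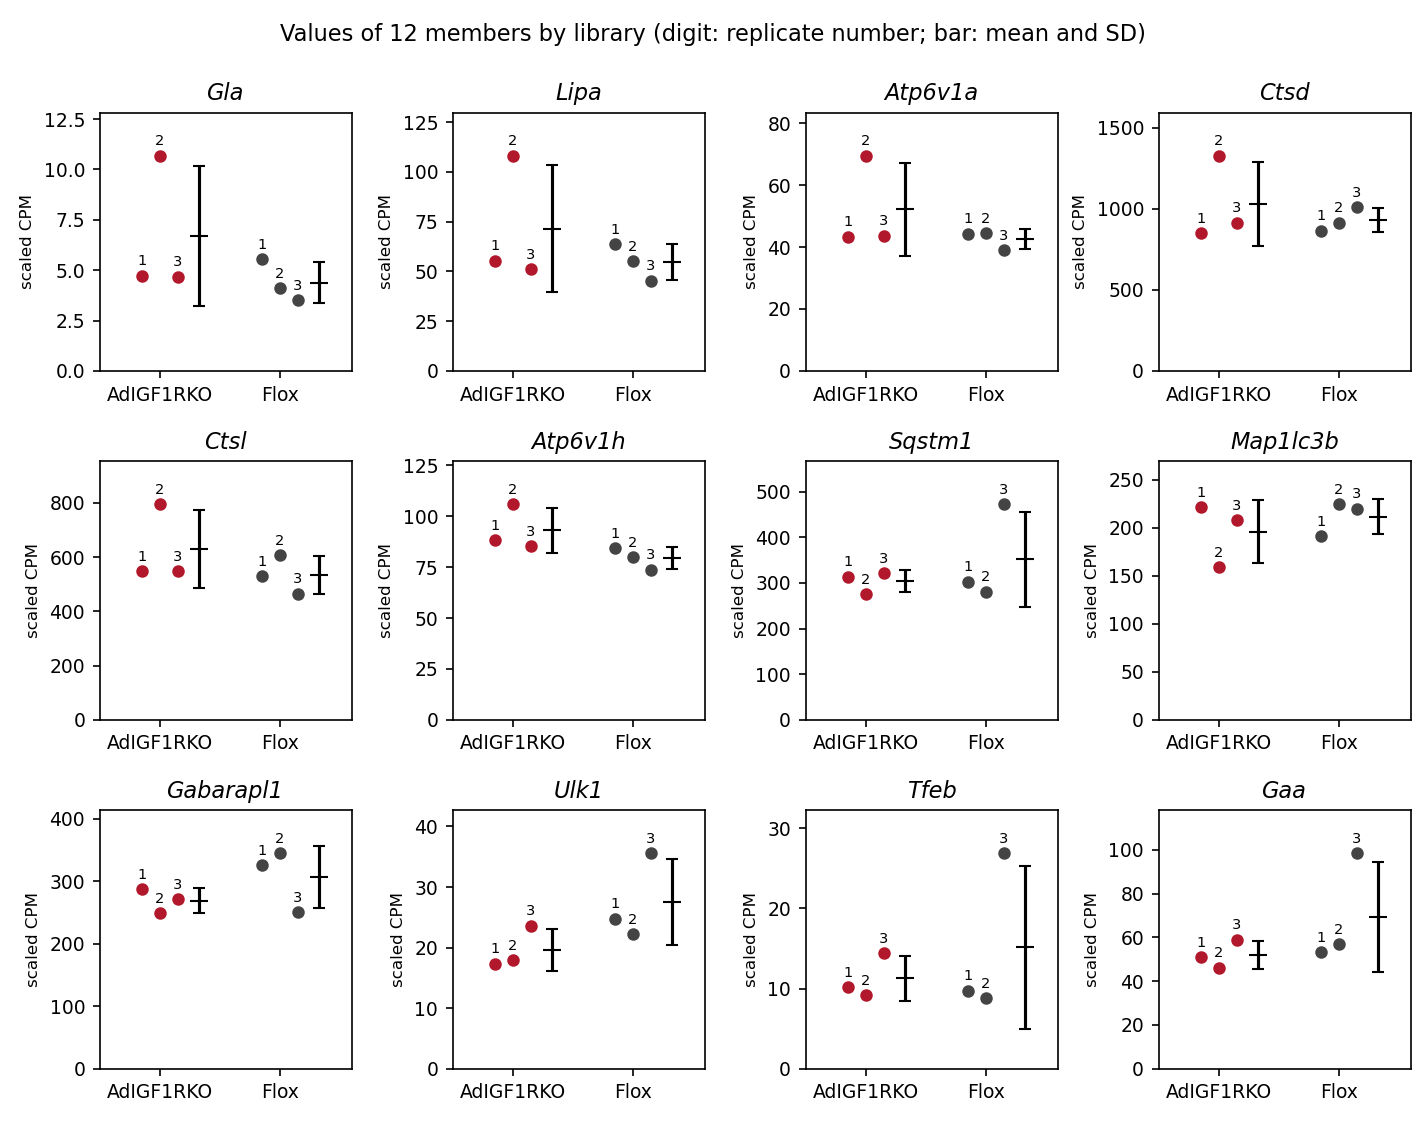
Scaled CPM (linear axis from 0) of 12 members in the 3 AdIGF1RKO libraries (left, red) and the 3 Flox libraries (right, grey), with the replicate number at each point and the mean and SD (n = 3) as a bar. Gla, Lipa, Atp6v1a, Ctsd and Ctsl have 1 high point, AdIGF1RKO 2, and Sqstm1, Ulk1, Tfeb and Gaa have 1 high point, Flox 3.

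Of the 3 membrane members, 0 were highest in AdIGF1RKO 2, and their log2 differences lay between -0.16 and -0.01, while 2 of the 3 were positive with equal library sums. Lamp1, an abundant glycoprotein that lines the organelle, had 677, 712 and 661 scaled CPM in AdIGF1RKO and 660.4, 694 and 734 in Flox (log2 difference -0.03, standard error 0.09, 95% interval from -0.24 to 0.19). Lamp2, which is also the receptor of chaperone-mediated autophagy, had 273, 261 and 243 in AdIGF1RKO and 270.1, 273 and 241 in Flox (-0.01, standard error 0.09, interval from -0.24 to 0.21). Both genes held their level in AdIGF1RKO 2, at 1.04 and 1.01 times the mean of the other 5 libraries, while Ctsd stood at 1.46 and Lipa at 2.00 times that mean. Mcoln1, the calcium channel TRPML1 of the lysosomal membrane, had 45.8, 40.0 and 47.1 in AdIGF1RKO and 45.1, 53.8 and 50.1 in Flox (-0.16, standard error 0.11). AdIGF1RKO 2 was the lowest library for Mcoln1.

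All 4 V-ATPase members had log2 differences above 0 (median 0.17), as did 2 with the values as deposited and 4 with equal library sums, and all 4 were highest in AdIGF1RKO 2 and lowest in Flox 3. Atp6v1h, a regulatory subunit of the cytosolic V1 sector, had 88.2, 106 and 85.2 scaled CPM in AdIGF1RKO and 84.4, 79.9 and 73.8 in Flox. It was the member whose groups separated, with a log2 difference of 0.22 (standard error 0.11), and AdIGF1RKO 3 lay barely above Flox 1. The unadjusted limma p of Atp6v1h was 0.0927 and its adjusted p 0.998. Atp6v1a, the catalytic subunit of V1, had 43.3, 69.5 and 43.6 in AdIGF1RKO and 44.3, 44.5 and 39.0 in Flox. AdIGF1RKO 2 stood at 1.56 times the highest other library, and the log2 difference of 0.25 (standard error 0.20) was 0.03 without it. Atp6v1b2, the other subunit of the catalytic ring, and Atp6v0d1, which joins the membrane sector to the central stalk, had log2 differences of 0.10 and 0.12. Without AdIGF1RKO 2 the median of the 4 was 0.06 and 3 stayed positive.

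The transcription factor genes had differences of opposite sign. Tfeb had 10.2, 9.20 and 14.4 scaled CPM in AdIGF1RKO and 9.71, 8.82 and 26.9 in Flox. It was highest in Flox 3 and next highest in AdIGF1RKO 3, the libraries with 13.8% and 5.02% of reads from muscle markers. The log2 difference of Tfeb was -0.25 (standard error 0.41) with all libraries and 0.24 without Flox 3. Tfe3 had 27.4, 30.1 and 27.1 in AdIGF1RKO and 27.9, 26.9 and 23.7 in Flox (0.11, standard error 0.10), with AdIGF1RKO 2 highest and Flox 3 lowest. Messenger RNA of these factors does not show where the proteins are in the cell.

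**Figure D3:**
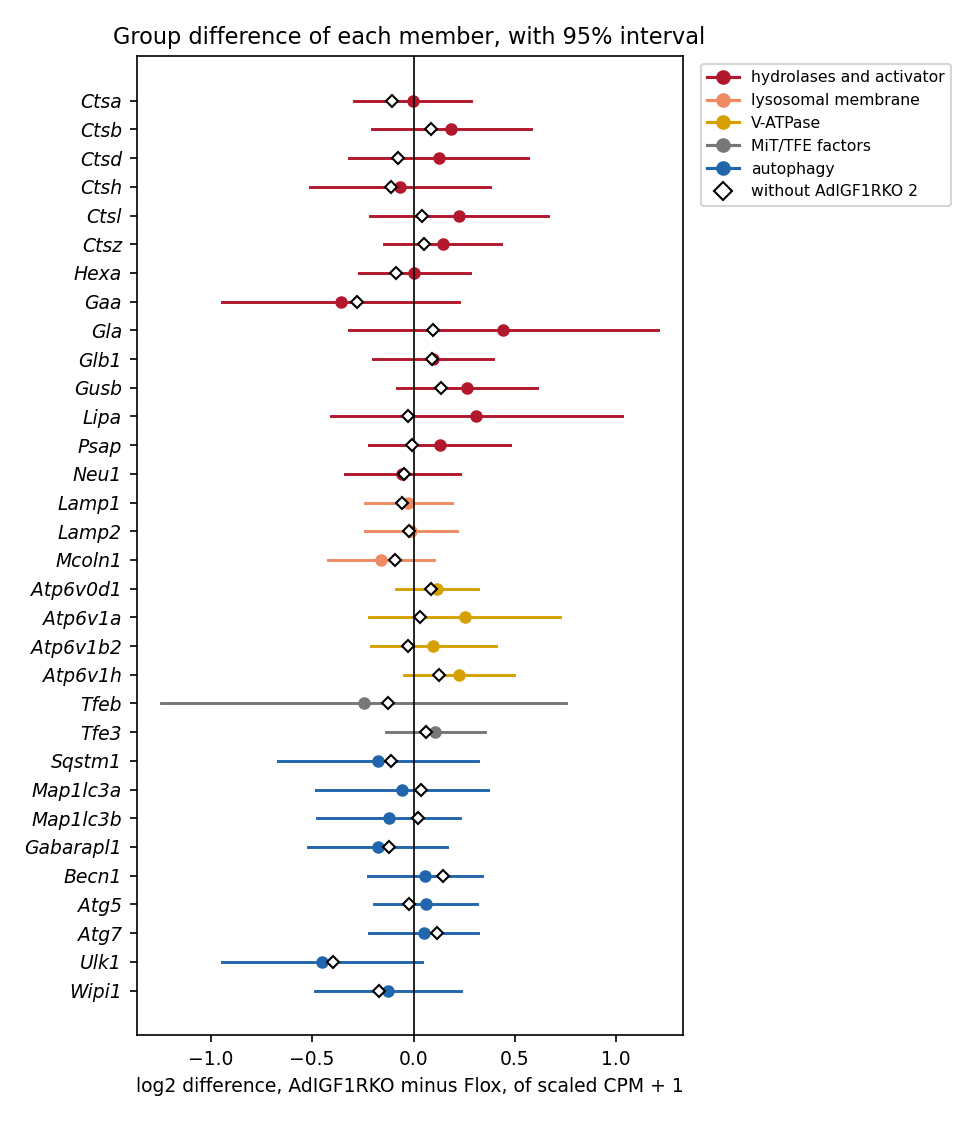
Points give the log2 difference of each member, AdIGF1RKO minus Flox, with 95% intervals from limma as lines and the value without AdIGF1RKO 2 as open diamonds. Every interval spans 0, and the diamonds of Gla, Lipa and Atp6v1a lie near 0.

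Autophagy genes lay lower in AdIGF1RKO for 6 of 9, for 9 with the values as deposited and for 4 with equal library sums, and none passed the test. Ulk1, the kinase that starts autophagosome formation, had 17.4, 18.0 and 23.6 scaled CPM in AdIGF1RKO and 24.8, 22.3 and 35.6 in Flox. Its log2 difference of -0.45 (standard error 0.20, 95% interval from -0.94 to 0.04) was the furthest below 0 of the 32 members, and its unadjusted limma p was 0.0659. AdIGF1RKO 3 exceeded Flox 2, so the groups overlapped. Flox 3 was the highest library, and without it the log2 difference was -0.26. In a limma fit that blocked on the replicate number, Ulk1 had an unadjusted p of 0.00787 and an adjusted p of 0.914. In that fit 4.48% of all genes had an unadjusted p under 0.05. What a replicate number marks is not in the labels. Wipi1, which binds the phosphoinositide of the forming membrane, and Becn1, of the lipid kinase complex that makes it, had log2 differences of -0.12 and 0.06. Becn1 had 106, 83.1 and 96.6 in AdIGF1RKO and 86.2, 88.3 and 99.1 in Flox, with AdIGF1RKO 2 lowest and AdIGF1RKO 1 highest of all.

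Among genes of the LC3 and GABARAP family, Map1lc3b had 221, 159 and 208 scaled CPM in AdIGF1RKO and 191, 224 and 219.7 in Flox (log2 difference -0.12, standard error 0.15). Its lowest library was AdIGF1RKO 2, without which the difference was 0.02. Map1lc3a had 388, 320.3 and 393 in AdIGF1RKO and 305, 382 and 470.2 in Flox (-0.06, standard error 0.18), with broad overlap. Gabarapl1 had 287, 249 and 271 in AdIGF1RKO and 325, 344 and 250.0 in Flox (-0.18, standard error 0.14). Flox 3 was within the AdIGF1RKO range for Gabarapl1 and the other Flox libraries were above it, so that the difference was -0.31 without Flox 3. Sqstm1, the cargo receptor p62 that is itself degraded by autophagy, had 313, 276 and 321 in AdIGF1RKO and 302, 281 and 472 in Flox (-0.18, standard error 0.20). Flox 3 stood alone for Sqstm1, and without it the difference was 0.06. Atg5 and Atg7, of the conjugation system that attaches lipid to LC3, had log2 differences of 0.06 and 0.05.

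AdIGF1RKO 2, read on its own, held the highest value of the 6 libraries for 10 of 14 hydrolase members, 71.4%, and for 4 of 4 V-ATPase members. The same library was highest for 19.9% of all tested genes and for 1 of 9 autophagy members, Atg5. Conversely it was lowest for 4 of 9 autophagy members, 44.4%, namely Sqstm1, Map1lc3b, Gabarapl1 and Becn1, against 18.6% of all tested genes. Its value exceeded the highest of the other 5 libraries by more than 1.5 times for Gla, Lipa and Atp6v1a, 3 of 32 members, against 1.29% of all tested genes. Relative to the mean of the other 5 libraries, the median hydrolase member was at 1.25 times, the median V-ATPase member at 1.28 times and the median autophagy member at 0.841 times. This is 1 library without a replicate, so it gives no test, and it was singled out with earlier results of these data known.

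Set against each other within a library, hydrolases stood above autophagy genes most in AdIGF1RKO 2 and least in Flox 3. The median log2 deviation of hydrolases minus that of autophagy genes was -0.02, 0.47 and -0.15 in AdIGF1RKO 1 to 3, and 0.03, 0.07 and -0.33 in Flox 1 to 3. The means were 0.10 ± 0.33 in AdIGF1RKO and -0.08 ± 0.22 in Flox (SD, n = 3 each), a gap smaller than either SD. Flox 3, AdIGF1RKO 3 and AdIGF1RKO 1 lay below 0, with 13.8%, 5.02% and 0.0588% of reads from muscle markers. The part of muscle RNA in this contrast was not tested. Flox 3 was lowest for 9 of 14 hydrolases, 64.3%, and for all 4 V-ATPase members, against 26.2% of all tested genes, and it was highest for 4 of 9 autophagy members, 44.4%, against 30.8%.

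Macrophage markers were high in AdIGF1RKO 2. All 10 genes of the lipid-laden macrophage list were highest there, against 19.9% of all genes, with a median of 3.69 times the mean of the other 5 libraries. Between these genes the ratio ran from 1.14 to 21.3. Of the 10 genes, 7 exceeded the highest other library by more than 1.5 times. The list summed to 3257, 4531 and 3351 scaled CPM in AdIGF1RKO and 3238, 3534 and 2831 in Flox, a sum in which genes with high values weigh most. Atp6v0d2, a V-ATPase subunit isoform found in osteoclasts and macrophages that belongs to this list, had 1.37, 17.1 and 1.65 in AdIGF1RKO and 1.16, 1.53 and 1.22 in Flox. Of 15 general macrophage markers 7 were highest in AdIGF1RKO 2 and 6 in Flox 1, and the list summed to 2933, 4086 and 2579 in AdIGF1RKO and 3567, 3221 and 2287 in Flox. The median log2 deviation of these 15 markers was 0.26 in AdIGF1RKO 2 and 0.25 in Flox 1, while that of the hydrolase members was 0.27 in AdIGF1RKO 2 and -0.02 in Flox 1. Over the 15 markers AdIGF1RKO 2 stood at 0.753 to 2.23 times the mean of the other 5 libraries, with a median of 1.23 times. Only 1 of them, Cd68, exceeded the highest other library by more than 1.5 times, and it was picked after its values were seen. Cd68, itself a lysosomal membrane glycoprotein, had 84.1, 172 and 65.8 in AdIGF1RKO and 92.9, 81.8 and 61.4 in Flox. The part of macrophages in the values of the hydrolases was not tested.

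**Figure D4:**
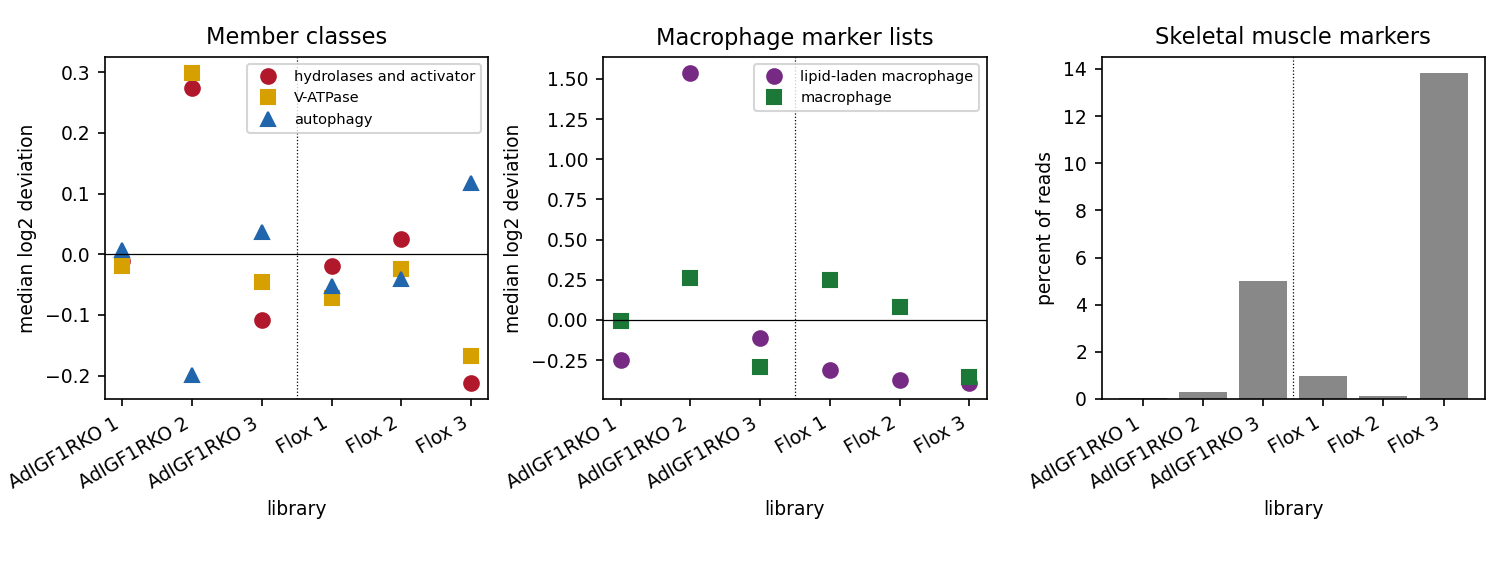
By library, the left panel gives the median log2 deviation of 3 member classes from their mean over the 6 libraries, the middle panel the same for both macrophage marker lists, and the right panel the percent of reads in skeletal muscle markers (bars from 0). In AdIGF1RKO 2 hydrolases and V-ATPase stand at 0.27 and 0.30 and autophagy genes at -0.20, beside a lipid-laden macrophage median of 1.54; in Flox 3 autophagy genes stand at 0.12, above V-ATPase at -0.17 and hydrolases at -0.21, beside 13.8% of reads from muscle markers.

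Other genes of the lysosome and of autophagy, taken from lists of 116 tested genes, gave no call either. The counts of positive differences below followed the scaling. With the values as deposited they were 6 of 32 further hydrolases, 0 of 12 V-ATPase subunits, 1 of 23 membrane genes, 0 of 38 autophagy genes and 3 of 11 regulators. With equal library sums they were 30, 12, 22, 29 and 6 in the same order. Of all 12993 tested genes, 1916 were positive with the values as deposited and 9394 with equal library sums. Among 32 further hydrolases 0 passed and 23 lay above 0 on the log2 scale (median 0.04), or 13 without Flox 3. Pla2g15, the lysosomal phospholipase A2, had 41.3, 45.0 and 41.5 scaled CPM in AdIGF1RKO and 38.8, 37.6 and 32.2 in Flox (log2 difference 0.23, unadjusted p = 0.0629), without overlap. Sgsh, a sulfatase of heparan sulfate, had 8.58, 9.64 and 7.74 in AdIGF1RKO and 7.46, 7.28 and 6.71 in Flox, also without overlap. Ctsf, a cysteine cathepsin, was lower without overlap, at 56.6, 48.3 and 56.6 in AdIGF1RKO and 56.9, 63.9 and 58.1 in Flox. These 3 are 9.38% of the 32 further hydrolases, against 8.27% of all tested genes. AdIGF1RKO 2 was highest for 13 of the 32, 40.6%, and exceeded the others by more than 1.5 times for Ctss, the cathepsin of antigen-presenting cells, and Lgmn, the asparaginyl endopeptidase legumain. Ctss had 144, 417 and 140.2 in AdIGF1RKO and 192, 158 and 124 in Flox.

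Of 12 further V-ATPase subunits 0 passed and 7 were positive (median 0.03). Atp6v0e and Atp6v0a2 had log2 differences of 0.16 and 0.14, and Atp6v1c1 was highest in AdIGF1RKO 2 at 75.2 scaled CPM. AdIGF1RKO 2 was highest for 6 of the 12 and Flox 3 for the other 6. Of 23 further membrane and trafficking genes 0 passed and 12 were positive (median 0.02). AdIGF1RKO 2 was highest for 8 of the 23, 34.8%, against 19.9% of all tested genes. Without overlap 1 was higher and 1 lower, 8.70% of the 23, against 8.27% of all tested genes. Tpcn2, a cation channel of the endolysosome, had 16.0, 19.1 and 18.1 in AdIGF1RKO and 13.7, 13.1 and 14.9 in Flox, without overlap (log2 difference 0.33, standard error 0.11, unadjusted p = 0.0220, adjusted p = 0.998). Laptm4a was below Flox in every AdIGF1RKO library, at 655, 716 and 732 against 734, 753 and 784 (-0.11, standard error 0.09), and Lamtor3, a subunit of the complex that anchors mTORC1 to the lysosome, was highest in AdIGF1RKO 2 at 92.1.

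Of 38 further autophagy genes 0 passed and 24 were negative, with a median of -0.05. Nbr1, a cargo receptor related to p62, had 84.2, 79.1 and 78.5 in AdIGF1RKO and 90.4, 89.6 and 87.7 in Flox, and Tax1bp1, another receptor, had 111, 119 and 111 in AdIGF1RKO and 103, 102 and 105 in Flox. These groups separated in opposite directions, with log2 differences of -0.15 and 0.13. Without overlap 1 of the 38 was higher and 1 lower, 5.26%, against 8.27% of all tested genes. AdIGF1RKO 2 was lowest for 13 of the 38, 34.2%, and Flox 3 was highest for 18, 47.4%. Of 11 regulators 0 passed and 5 were positive (median -0.04). Without overlap 2 were higher and 2 lower, 36.4% of this short list, against 8.27% of all tested genes. Zkscan3, described in human cells as a repressor of autophagy genes, had 72.2, 64.4 and 71.7 in AdIGF1RKO and 76.6, 82.5 and 83.6 in Flox (-0.22, standard error 0.09, unadjusted p = 0.0467). Rragc, a GTPase that brings mTORC1 to the lysosome, had 109, 118 and 103 in AdIGF1RKO and 98.5, 97.4 and 80.1 in Flox (0.26, standard error 0.11). Tfec, the relative of Tfeb known from macrophages, had 1.14, 3.65 and 1.43 in AdIGF1RKO and 1.72, 1.84 and 0.787 in Flox, with AdIGF1RKO 2 at 1.98 times the highest other library.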

How the data were processed

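Polyadenylated RNA was sequenced from 6 libraries, 3 AdIGF1RKO and 3 Flox, each named in the labels as a mouse replicate. The authors deposited 1 table whose name says FPKM, but its signal values were, within a rounding tolerance of 0.5, whole reads times 1000000000 over a single divisor per library in 100% of cases. For the aligner, counter and annotation, nothing was stated: not given in the sources used here. Reads were recovered, divided by median-ratio size factors, and expressed per 1000000 reads of a library of geometric mean size. Genes with a mean of at least 1 (12993 of 14861, all 32 members) were tested with limma 3.58.1 in R 4.3.3 (log2 of the value + 1, trend over intensity, two-sided), with Benjamini-Hochberg adjustment over all genes and a threshold of 0.05. Log2 differences on this scale understate changes of low genes. edgeR 4.0.16 and DESeq2 1.42.0 ran on the recovered reads. The limma steps were tried on simulated reads with the same dispersion for all genes, without the differences in muscle and macrophage RNA seen here. That trial does not show how the test performs on libraries as unlike as these. An exact permutation test of 3 against 3 cannot go below p = 0.1.

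Members, gene lists and tests were chosen with earlier results of these data known. Per-library values were printed for the members and list genes that a rule named. It took 16 members by symbol, members without overlap, the 3 largest differences in each direction and the 3 highest in AdIGF1RKO 2. In each further list it took the 2 smallest p-values and the gene highest in AdIGF1RKO 2. Ctsf, Lgmn, Cd68 and Atp6v0d2 were added after their values were seen.

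The main test did not pair libraries, and the replicate block was an alternative that took same-numbered libraries as pairs. Deviations of same-numbered libraries from their group means correlated at 0.347, 0.349 and 0.834. AdIGF1RKO 1 correlated more closely with Flox 2, at 0.700, and AdIGF1RKO 2 correlated with Flox 1 at 0.326. The value of 0.834 joins AdIGF1RKO 3 and Flox 3, the libraries with the most muscle RNA. The labels do not say what a number marks, so pairs are not established. Alternatives were other scalings, pseudocounts of 0.5 and 0.1, no filter or a mean of at least 5, the replicate block, quality weights, both count tests and left-out libraries.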

Additional observations from a re-analysis of the deposited data

How the results depend on the processing

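No member passed at an adjusted p under 0.05 under any alternative run. Over all genes limma called 0 to 1 with single libraries left out, 0 with the replicate block and 0 with each other limma setting, edgeR called 0, and DESeq2 called 23, none of them a member. The replicate block left every log2 difference as it was and gave 582 genes an unadjusted p under 0.05, against 385 without it. The median of lysosomal members, 0.12, ran from -0.021 without AdIGF1RKO 2 to 0.16 without AdIGF1RKO 3, and was -0.045 on the deposited scale, on which all genes had a median of -0.17, 0.24 with equal library sums and 0.066 with array quality weights. The median of autophagy members, -0.12, ran from -0.17 without Flox 1 to 0.0059 without Flox 3, with -0.024 without AdIGF1RKO 2. It was -0.28 on the deposited scale, 0.0019 with equal library sums, where the median of all genes was 0.09, -0.0046 with array quality weights and 0.011 without both Flox 3 and AdIGF1RKO 3. The cause of these shifts was not tested. The sign of the difference changed for 11 members with the values as deposited, 7 with equal library sums and 8 without AdIGF1RKO 2, none of them called. Gla exceeded Ulk1 in the size of its difference with a pseudocount of 0.5 (0.48 against -0.46) or 0.1 (0.51 against -0.47) and with edgeR (0.61 against -0.49). AdIGF1RKO 2 was highest for 16 members, against 19.9% of all genes, and for 10 with the values as deposited, against 5.20%. It was highest for 16 to 18 members under the other settings run for it, which were added after seeing the data. Under those settings the share of all genes ran from 21.8% to 31.4%. With 3 libraries a group, the 95% intervals of Gla, Lipa and Tfeb allow differences above 1 on the log2 scale in size.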

Other observations

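Some list genes stood out in the libraries rich in muscle RNA, and these were chosen after their values were seen. Rragd, a GTPase closely related to Rragc, had 0.402, 1.85 and 20.7 scaled CPM in AdIGF1RKO and 4.94, 0.670 and 62.2 in Flox. Atg9a, the membrane protein of autophagy vesicles, had 15.5, 18.5 and 23.6 in AdIGF1RKO and 18.8, 16.5 and 43.1 in Flox, and Atg4d, a protease of LC3, had 9.93, 12.8 and 19.3 in AdIGF1RKO and 14.4, 12.0 and 25.9 in Flox. For each of the 3 genes Flox 3 and AdIGF1RKO 3 were the highest libraries. The part of muscle RNA in these values was not tested.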
